A study of Homo sapiens with 4 samples.

Results

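The MCM (minichromosome maintenance) family comprises here MCM2, MCM3, MCM4, MCM5, MCM6, MCM7, MCM8, MCM9, MCM10 and MCMBP. These 10 genes were taken by symbol from the 56657 rows of a gene count table, 1 row for each symbol, and all 10 passed the filter on low counts. RNA was sequenced in TE5, an established esophageal squamous cell carcinoma line, with 2 libraries from cells given a control short hairpin RNA by lentivirus (shControl, genotype labelled WT) and 2 from cells given hairpin RNA against NUP153 (shNUP153, genotype labelled NUP153 knockdown). NUP153 is a nuclear pore protein on the nucleoplasmic side of the pore. Both groups carried lentivirus, were selected with puromycin and were then kept until day 7. The 2 shNUP153 libraries have the endings g1 and g2 in their descriptions. Whether these mark different hairpins, and whether replicates are separate infections, is not stated, so an effect of a hairpin on other RNAs cannot be told apart from that of NUP153. The family was chosen by name with its difference in CPM between the groups of these 4 libraries already known. The differences of its members between shControl and shNUP153 are therefore a description of these libraries, given with no p-value.

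MCM2 to MCM7 are the subunits of a ring-shaped hexamer that is loaded around DNA at replication origins in G1 phase and becomes the motor of the replicative helicase in S phase. Loading needs the origin recognition complex, CDC6 and CDT1, and the loaded ring is switched on by the DBF4-dependent kinase CDC7 and by binding CDC45 and the GINS complex, which makes the CMG helicase. MCM8 and MCM9 form a separate helicase used in homologous recombination. MCM10, which despite its name has no helicase domain of the MCM kind, helps the CMG start unwinding, and MCMBP binds MCM subunits outside chromatin and supports their supply. Genes of MCM2 to MCM7 are textbook targets of the E2F transcription factors, and their RNA is high in cycling cells and low in resting ones.

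Promoter windows of 250 bases before to 50 bases after the gene start were found for 8 of the 10 members in RefSeq sequences of build GRCh38.p14. MCM4 and MCM5 were not matched. The windows were searched on both strands for the 8-base E2F-type sequences TTTGGCGC, TTTCCCGC, TTTGCCGC and TTTCGCGC. At least 1 of them lay in a window of 6 of these 8 members, MCM2, MCM3, MCM6, MCM7, MCM8 and MCMBP, and in a window of 6.37% of the 11114 other tested genes that have one. Counted by window, 6 of 11 windows of the members held one, and 3.32% of the 35116 windows of that length in the table. Members were not chosen by these sequences, but MCM2 to MCM7 are known E2F targets, so matches in their windows could be foreseen. The stretches that hold the matches are shown 5′ to 3′ on the strand of each gene, with the matched bases in capitals.
MCM2, chr3:127598399-127598425, plus strand: tcacgtgaaccactTTTCGCGCGAAAc
MCM3, chr6:52284735-52284922, minus strand: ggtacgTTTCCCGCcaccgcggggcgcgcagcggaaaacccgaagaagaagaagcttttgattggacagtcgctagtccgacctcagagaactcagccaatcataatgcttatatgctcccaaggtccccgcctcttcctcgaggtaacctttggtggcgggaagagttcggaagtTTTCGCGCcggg
MCM6, chr2:135876514-135876603, minus strand: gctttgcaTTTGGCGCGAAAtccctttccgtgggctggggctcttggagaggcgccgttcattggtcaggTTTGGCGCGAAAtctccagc
MCM7, chr7:100101398-100101592, minus strand: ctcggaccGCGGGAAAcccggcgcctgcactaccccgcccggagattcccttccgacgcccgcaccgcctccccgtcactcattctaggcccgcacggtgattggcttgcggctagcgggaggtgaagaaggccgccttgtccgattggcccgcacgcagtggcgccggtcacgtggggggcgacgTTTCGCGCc
MCM8, chr20:5950671-5950691, plus strand: cactgaaGCGCCAAAaaagaa
MCMBP, chr10:119872844-119872883, minus strand: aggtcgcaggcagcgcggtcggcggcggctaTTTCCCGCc
In MCM2 and MCM6 the matches on opposite strands overlap by 4 bases, which makes runs of 12 capitals, 1 in MCM2 and 2 in MCM6. Counting the start base as 1 and the base before it as -1, the match nearest the start covered bases 3 to 14 after the start in MCM2, bases -4 to 4 in MCM3 and bases -9 to -2 in MCM7 and MCMBP, whereas in MCM6 the nearer run ended at base -79 and in MCM8 the match lay at bases 27 to 34. MCM7 has 3 windows in the table, of which the most upstream holds both its matches, and MCMBP has 2, of which 1 holds its match. No window of MCM9 or MCM10 held these letters, which says nothing about whether E2F factors bind there. CCAAT, searched on both strands, was found in a window of MCM3, MCM6, MCM7, MCM8, MCM9 and MCM10 and in 34.6% of all windows. A match is a run of letters, not a shown binding site.

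The libraries held 22606593 to 27396268 counts, and 16817 genes were tested. NUP153 was at 149 and 142 in shControl and at 67.9 and 81.9 in shNUP153, in CPM, which are counts relative to library size after TMM scaling (trimmed mean of M values). Of 8 squamous markers 7 reached 1 CPM on average, with KRT14 below it, and their list summed to 2200 to 2208 CPM in shControl and 2630 to 2631 CPM in shNUP153. Within it KRT17 was at 734 CPM on average in shControl and 1245 CPM in shNUP153, while the basal keratin KRT5 was at 24.4 and 15.3 CPM. TP63, PKP1, DSG3, SFN and KRT6A were also lower on average in shNUP153, so the higher sum came from KRT17. All 4 markers of simple epithelium reached 1 CPM and summed to 3109 to 3134 CPM in shControl and 3083 to 3114 CPM in shNUP153. Among them EPCAM was at 231 and 114 CPM on average and KRT8 at 1501 and 1402 CPM. KRT18, at 375 and 440 CPM, and KRT19, at 1014 and 1142 CPM, went the other way. None of 6 fibroblast and 5 immune markers reached 1 CPM, and DCN and LUM were at 0 counts in every library. Of 4 endothelial markers, CDH5 and VWF reached 1 CPM and their list summed to 11.1 and 12.3 CPM in shControl and to 24.1 and 25.2 CPM in shNUP153, with PECAM1 and KDR at 0.116 CPM or less. The part of these marker differences in the MCM values was not tested.

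The genes of all 6 subunits of the replicative helicase were lower in shNUP153, and by nearly the same proportion. MCM7 had the most counts, at 1125 and 1206 CPM in shControl and 743 and 768 CPM in shNUP153, which is 1166 ± 57.0 against 755 ± 17.6 (SD, n = 2), 1.54-fold lower (log2 fold change -0.63, SE 0.04). MCM4 measured 755 and 771 CPM in shControl and 503 and 517 CPM in shNUP153, 1.496-fold lower (log2 fold change -0.58, SE 0.04). For both genes the shNUP153 libraries lay well below the shControl libraries, and the gap was several times the spread within a group.

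MCM2, whose protein also carries histones at the fork, measured 464 and 501 CPM in shControl against 320.1 and 320.2 CPM in shNUP153, 1.51-fold lower (log2 fold change -0.59, SE 0.05). MCM3 measured 399.7 and 418 CPM against 274 and 269.9 CPM, 1.503-fold lower (log2 fold change -0.59, SE 0.05). These 2 subunit genes had their larger spread in shControl, and their groups did not overlap either.
MCM6 measured 249.0 and 251 CPM in shControl and 156 and 155 CPM in shNUP153, 1.61-fold lower (log2 fold change -0.68, SE 0.05). MCM5, which with MCM2 forms the gate through which the ring opens, measured 189.9 and 202 CPM against 121 and 124 CPM, 1.60-fold lower (log2 fold change -0.68, SE 0.05). MCM6 and MCM5, the least abundant of the 6, had the largest differences of the 10 members. The 6 log2 fold changes spanned 0.10, with an SE of 0.04 to 0.05 for each. A fall of RNA in each cell cannot be told apart here from a smaller share of cells in the cycle phases that hold this RNA.

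**Figure D1:**
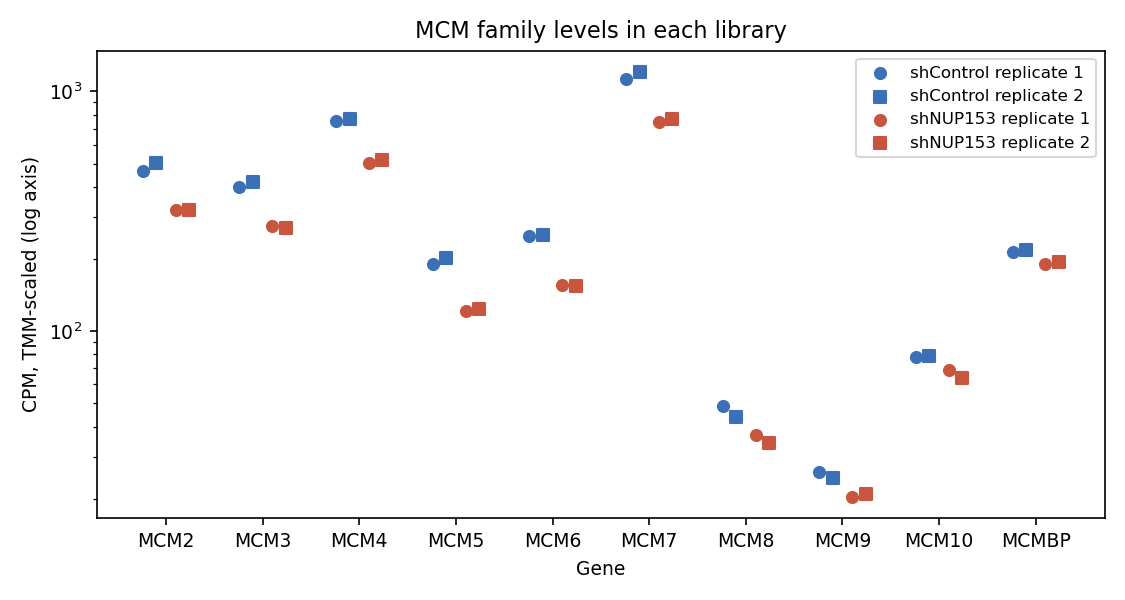
Level of each MCM family gene (x axis) in CPM with TMM scaling (y axis, log scale), 1 point for each of the 4 libraries. For every gene both shNUP153 points lie below both shControl points, and MCM7 is highest, at 743 to 1206 CPM.

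The 4 members outside the replicative ring differed less. MCM8 measured 48.7 and 43.7 CPM in shControl and 36.8 and 34.2 CPM in shNUP153, 1.298-fold lower (log2 fold change -0.38, SE 0.07). MCM9, the lowest of the family with 499 to 650 counts a library, measured 25.8 and 24.4 CPM against 20.4 and 21.0 CPM, 1.21-fold lower (log2 fold change -0.27, SE 0.08). The groups of these recombination helicase genes did not overlap, but for MCM8 the gap between the groups was not much wider than the spread within shControl.
MCM10 measured 78.4 and 78.8 CPM in shControl and 69.2 and 63.8 CPM in shNUP153, 1.18-fold lower (log2 fold change -0.24, SE 0.06). MCMBP had the smallest difference, from 214 and 217 CPM to 191 and 195 CPM, 1.12-fold lower (log2 fold change -0.16, SE 0.05). MCM10 was tighter in shControl than in shNUP153, and MCMBP was tight in both groups.

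The fit across all genes (edgeR's quasi-likelihood test, adjusted p below 0.05 by Benjamini-Hochberg) called all 10 members lower. Of the 16817 tested genes it called 17.4% lower and 32.4% in either direction, and it called lower 28.9% of the 7802 tested genes of 20 CPM or more on average. Because the family was proposed with this comparison known, nothing is read from that count, nor from the calls at other settings given below, which reuse the same 4 libraries. With limma without a variance trend the calls of MCM2 to MCM7 were only just under the threshold. The groups did not overlap, with shNUP153 lower, for all 10 members and for 32.2% of tested genes (32.2% were higher with no overlap). The median log2 fold change was -0.58 over the 10 members, -0.61 over MCM2 to MCM7, -0.26 over the other 4 and 0.005 over all tested genes. Ranked from the most negative log2 fold change of all tested genes, MCM6 stood at place 535 and MCMBP at place 4598. MCM2 to MCM7 were called at every other setting tried, while MCM9 lost its call with total-count scaling, with DESeq2, with limma without a variance trend, and on leaving out shControl replicate 1 or either of the shNUP153 replicates. That of MCMBP was lost without either shNUP153 replicate, with total-count scaling and with no variance trend, that of MCM10 without shNUP153 replicate 2 and with no variance trend, and that of MCM8 with no variance trend.

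**Figure D2:**
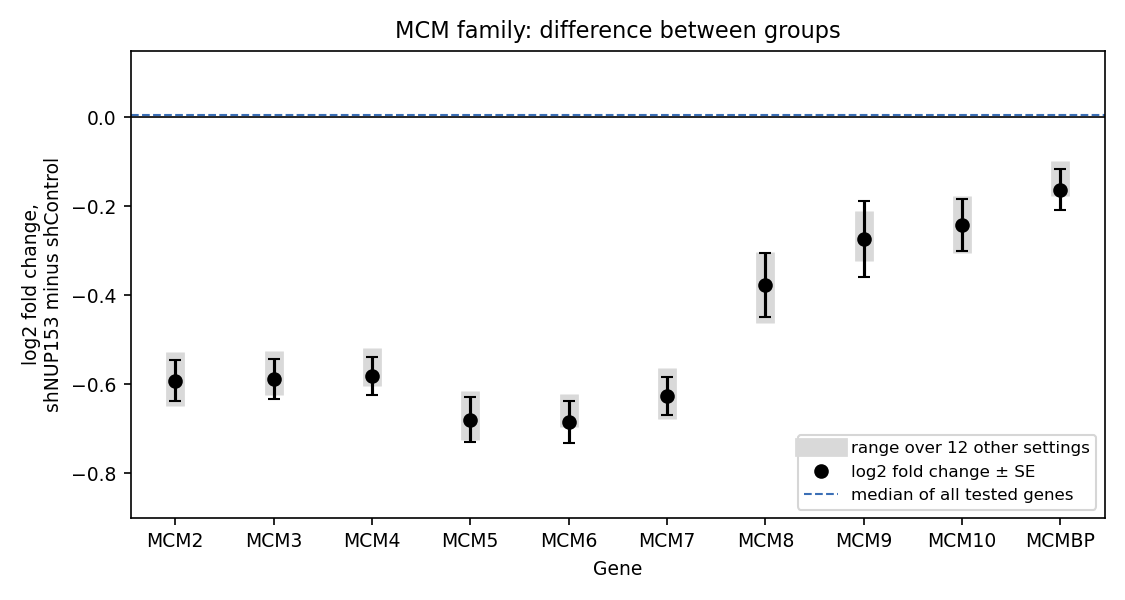
Log2 fold change of each MCM family gene, shNUP153 minus shControl (y axis), as a point with its SE, over a grey bar that spans its values at the 12 other settings. MCM2 to MCM7 sit between -0.68 and -0.58, the other members between -0.38 and -0.16, and the dashed line marks the median of all tested genes at 0.005.

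Members also differed in level. To compare genes, CPM was divided by the longest annotated coding length of each gene (GENCODE 29), from 1926 bases for MCMBP to 3429 for MCM9. On this scale, CPM per kb, MCM7 was highest in shControl (540 ± 26.4, SD, n = 2), followed by MCM4 (281 ± 3.99), MCM2 (178 ± 9.71), MCM3 (159.8 ± 5.11), MCMBP (112 ± 1.07), MCM6 (101.5 ± 0.504), MCM5 (89.0 ± 3.84), MCM10 (29.95 ± 0.0984), MCM8 (17.5 ± 1.348) and MCM9 (7.32 ± 0.290). The order in shNUP153 was the same, and no neighbours in it overlapped in either group, so each step was larger than the spread between libraries. The order depends on the division by length. In CPM, MCM6 stood above MCMBP in shControl, at 250 and 216 on average, and below it in shNUP153, at 156 and 193. Proteins of the ring are used in equal numbers, yet the RNA of MCM7 was 6.075 times that of MCM5 per coding length in shControl and 6.30 times in shNUP153. Untranslated length and the unstated way of counting enter these levels.

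Proportions within the ring need no scaling between libraries. Per coding length, MCM7 made up 39.7% and 40.4% of the sum over MCM2 to MCM7 in shControl and 39.4% and 40.02% in shNUP153, with overlapping groups. MCM4 gave 21.2% and 20.5% against 21.2% and 21.5%, on average 0.489 percentage points more, with the nearest libraries of the groups almost equal. MCM6 gave 7.69% and 7.35% against 7.26% and 7.07%, and MCM5 6.56% and 6.62% against 6.30% and 6.31%, both lower in shNUP153 with no overlap. MCM2 (13.0% and 13.3% against 13.5% and 13.3%) and MCM3 (11.9% and 11.8% against 12.3% and 11.9%) overlapped. These differences depend on single libraries. Without shControl replicate 1 that of MCM4 was 0.822 points and that of MCM7 -0.645, and without shControl replicate 2 they were 0.157 and 0.043. That of MCM6, -0.356 in all 4 libraries, was -0.187 and -0.525 in these settings, and that of MCM5 stayed between -0.312 and -0.252 on leaving out any library. With 2 libraries a group an exact permutation test could not go below 0.333, so none was run. Together the 6 genes took 0.312% and 0.326% of all counts in shControl and 0.218% in both shNUP153 libraries.

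Against the mean of the 6 ring genes per coding length, the other members took a larger proportion in shNUP153. MCMBP stood at 50.8% and 48.9% of that mean in shControl and at 68.3% and 68.2% in shNUP153, a ratio of 1.37 between groups. MCM10 went from 13.6% and 13.0% to 18.1% and 16.4% (ratio 1.295), MCM9 from 3.43% and 3.08% to 4.09% and 4.14% (ratio 1.26), and MCM8 from 8.42% and 7.17% to 9.57% and 8.75% (ratio 1.175). The groups did not overlap for any of the 4, with the smallest gap for MCM8. Any gene that differed less than the ring genes, or rose, gains against their mean, so these ratios restate the smaller differences given above. How many other genes do so was not counted.

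**Figure D3:**
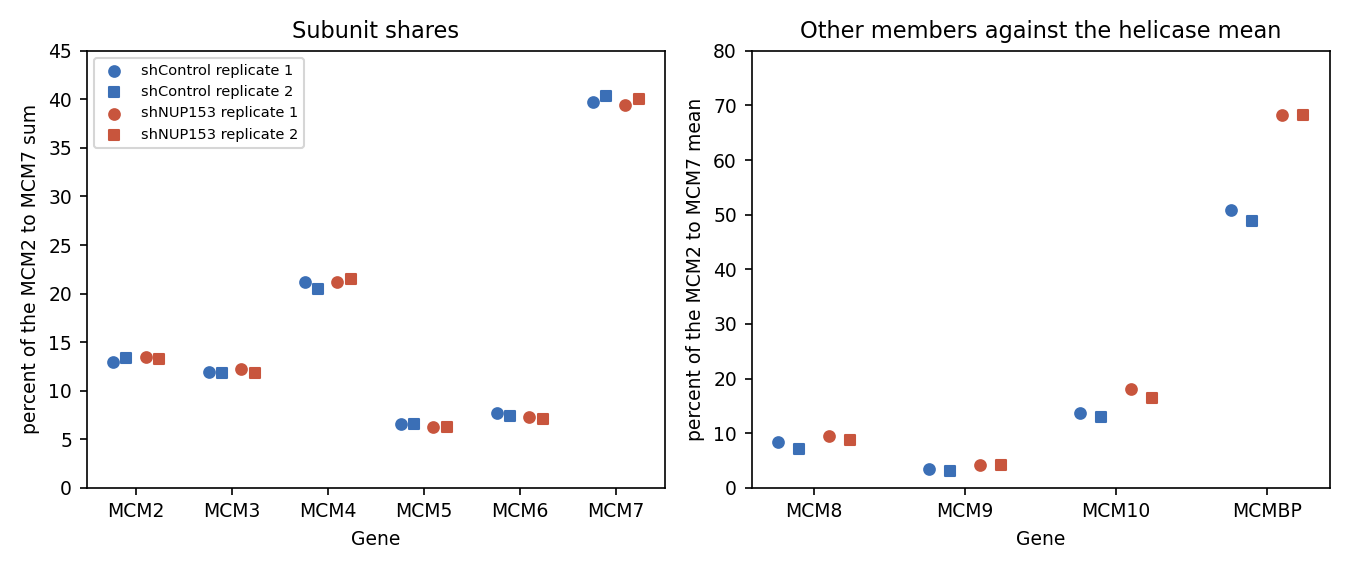
Left, each ring gene as a percent of the MCM2 to MCM7 sum per coding length (y axis) in each library. Right, each other member as a percent of the MCM2 to MCM7 mean per coding length (y axis). On the left the group means differ by 0.489 percentage points for MCM4 (0.822 without shControl replicate 1) and by less for the others, and on the right MCMBP moves from about 50% to 68.2%.

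Several members share a start region with a gene on the opposite strand, and of 5 such partners 1 was called, against 32.4% of all tested genes in either direction. By GENCODE 29 on GRCh38, used here only for which genes are neighbours and how far they lie apart, 5 members start within 2000 bases of a protein-coding gene on the opposite strand. TPRA1, whose start lies 44 bases from that of MCM2, measured 91.1 and 93.2 CPM in shControl and 93.2 and 101 CPM in shNUP153 (log2 fold change 0.08, SE 0.06, edgeR adjusted p = 0.325). AP4M1, a subunit of a vesicle adaptor complex, starts 391 bases from MCM7 and measured 15.5 and 16.1 CPM against 16.0 and 15.3 CPM (log2 fold change -0.01, SE 0.10, edgeR adjusted p = 0.941). Both partners overlapped between the groups where MCM2 and MCM7 did not.
TRMT6, a subunit of a tRNA methyltransferase, starts 94 bases from MCM8 and measured 42.9 CPM in both shControl libraries and 43.0 and 43.4 CPM in shNUP153 (log2 fold change 0.01, SE 0.07, edgeR adjusted p = 0.925). SEC23IP starts 155 bases from MCMBP and measured 98.2 and 85.8 CPM against 97.3 and 95.96 CPM (log2 fold change 0.07, SE 0.06, edgeR adjusted p = 0.364), though without shControl replicate 1 it was called higher (0.17, edgeR adjusted p = 0.0198). TPRA1 was likewise called higher with total-count scaling (0.14, edgeR adjusted p = 0.0498). The exception was PRKDC, the catalytic subunit of DNA-dependent protein kinase, whose start lies 2 bases from that of MCM4. It fell from 795 and 726 CPM to 594 and 603 CPM, 1.27-fold (log2 fold change -0.34, SE 0.04, edgeR adjusted p = 1.416e-07), against 1.496-fold for MCM4. Whether members and partners differed from each other was not tested.

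**Figure D4:**
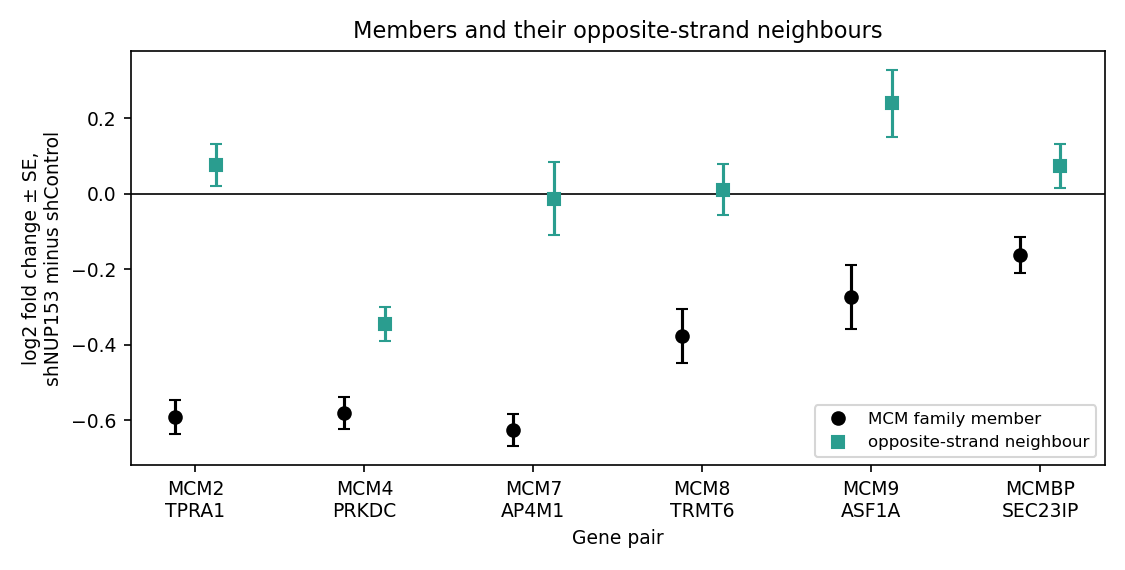
Log2 fold change, shNUP153 minus shControl, with SE (y axis) for 6 members (circles) and the opposite-strand neighbour of each (squares). PRKDC at -0.34 is the only neighbour called lower, and ASF1A at 0.24 the only one called higher.

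Overlaps limit some of these values, since the strand setting of the counting is not stated. Exons of MCM7 and AP4M1 share 392 bases, those of MCM2 and TPRA1 45 and those of MCM9 and ASF1A 137, so reads there cannot be told apart. The longest such overlap is the 1113 bases of MCM2 with the antisense gene AC023593.1, whose gene ID has no row of counts here. MCM9 also shares 100 bases with the antisense gene AL137009.1, which had 3 to 5 counts a library. ASF1A, a histone chaperone whose gene overlaps MCM9, measured 20.2 and 18.3 CPM in shControl and 23.02 and 22.3 CPM in shNUP153 (log2 fold change 0.24, SE 0.09, edgeR adjusted p = 0.0349), the opposite direction to MCM9. That call was lost at 6 other settings, namely without shControl replicate 2 or either shNUP153 replicate (edgeR adjusted p = 0.124 to 0.256), with DESeq2, with no filter and with limma without a variance trend. MCM7 also hosts MIR106B, MIR93 and MIR25 in its introns. Only MIR25 was tested, with 78 to 110 counts a library (log2 fold change -0.26, SE 0.19, edgeR adjusted p = 0.305), and reads from an intron of MCM7 and from the hairpin cannot be separated.

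Genes that share the MCM root without belonging to the helicase differed among themselves. MCM3AP, which codes for the mRNA export scaffold GANP and was first found as a partner of MCM3, fell from 69.4 and 63.6 CPM to 49.8 and 51.4 CPM (log2 fold change -0.39, SE 0.06, edgeR adjusted p = 6.064e-06). Its antisense RNA MCM3AP-AS1 was at 2.98 and 2.93 CPM against 3.08 and 2.40 CPM (log2 fold change -0.10, SE 0.21, edgeR adjusted p = 0.770), and overlapping reads of the pair cannot be told apart. MCMDC2, a meiotic MCM-domain gene, had 5 to 10 counts a library and MCM8-AS1 0 to 2, too few to test.

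Genes that act with the ring mostly fell with it. The 7 lists that follow were chosen with earlier results of these data known, and 87 of their 89 genes were tested. For the lists, fell and rose mean called lower and called higher, by the edgeR fit unless another setting is named. By these calls 58 fell and 4 rose, and the median log2 fold change was -0.27. Both shNUP153 libraries lay below both shControl libraries for 72 of the 87 and above them for 7. Among all tested genes this held for 32.2% in each direction. A gene that missed the call could thus still be lower in both libraries. Of the 16817 tested genes 17.4% were called lower and 2521 genes were called higher. Of those of 20 CPM or more 28.9% were called lower. The counts of each list, fallen and risen, stand beside these values with no test of the difference. All 5 CMG partners fell (median -0.53). GINS1 went from 106 and 101 CPM to 44.3 and 51.4 CPM (log2 fold change -1.11, SE 0.06, edgeR adjusted p = 3.32e-16), a larger difference than that of any member. GINS2 (-0.72) and CDC45 (-0.53) fell as well. GINS4 (-0.27) lost its call without shControl replicate 2 or shNUP153 replicate 1 (edgeR adjusted p = 0.251 and 0.376), with upper-quartile or total-count scaling, with DESeq2 and with limma without a variance trend. GINS3 (-0.22) fell too, but its call was lost with total-count scaling, DESeq2, no variance trend or either shNUP153 replicate left out (edgeR adjusted p = 0.082 and 0.144 for the replicates). The log2 fold change of GINS3 without shNUP153 replicate 1 was still -0.24.

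Of 9 genes for origin recognition and MCM loading, 6 fell and 0 rose (median -0.32). All 9, with or without a call, were lower in both shNUP153 libraries than in either shControl library. The loader CDC6 fell from 321.5 and 320.3 CPM to 197 and 199 CPM (log2 fold change -0.70, SE 0.05, edgeR adjusted p = 1.539e-14), close to the values of the ring genes. ORC1 (-0.51), ORC3 (-0.44) and GMNN (-0.32), the gene of the CDT1 inhibitor geminin, fell as well. CDT1, the other loader, was at -0.16 (edgeR adjusted p = 0.0173), and it did not pass on leaving out shControl replicate 2 or either of the shNUP153 replicates (edgeR adjusted p = 0.142 to 0.270), with upper-quartile or total-count scaling, with DESeq2 and with limma without a variance trend. ORC2 (-0.14), ORC5 (-0.06) and ORC6 (-0.13) did not pass the test. ORC6 passed it without shControl replicate 1 (-0.19, edgeR adjusted p = 0.00424). Among 14 kinases and firing factors 8 fell and 0 rose (median -0.22), led by CLSPN (-0.51), TIMELESS (-0.34), TOPBP1 (-0.29) and DONSON (-0.36). The MCM kinase gene CDC7 was at -0.12 and did not pass (edgeR adjusted p = 0.203). Without shNUP153 replicate 1, 5 of the 14 fell.

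Of 12 polymerase and primase genes 10 fell and 1 rose (median -0.29). POLA1 (-0.53), POLD2 (-0.45), POLD1 (-0.45) and POLE2 (-0.45) fell most clearly, POLD4 rose from 6.13 and 5.74 CPM to 9.25 and 8.81 CPM (log2 fold change 0.61, SE 0.13, edgeR adjusted p = 0.000534), and POLE4 was at 0.04 and did not pass. In the list of the clamp, its loader, RPA and Okazaki fragment enzymes 13 of 16 fell and 0 rose (median -0.29). The sliding clamp gene PCNA (-0.55), the ligase gene LIG1 (-0.77), RFC2 (-0.50) and DSCC1 (-0.55) fell, and RPA2 (-0.07), DNA2 (-0.22) and CHTF8 (-0.01) did not pass. DNA2 passed without shControl replicate 2 (-0.27, edgeR adjusted p = 0.0466).

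Factors that bind MCM proteins or take the ring off DNA were mixed, 6 of 12 tested falling and 1 rising (median -0.23). ASF1B (-0.48), MCM3AP, MMS22L (-0.34) and LRR1, the receptor of the ubiquitin ligase that marks the terminated CMG (-0.29; edgeR adjusted p = 0.0539 without shNUP153 replicate 1), fell, and ASF1A, with the lost calls given above, was the riser. CUL2 (-0.13), TRAIP (-0.17), UBXN7 (-0.03), TONSL (-0.03) and C17orf53, which codes for an MCM8-MCM9 loader (0.13), did not pass, although UBXN7 did without shControl replicate 2 (-0.15, edgeR adjusted p = 0.0404). Of 19 tested E2F, RB and DREAM regulators 10 fell and 2 rose (median -0.22). MYBL2 (-0.41), E2F2 (-0.46), E2F8 (-0.72) and RBBP4 (-0.34) fell, and E2F6 (0.53) and E2F7 (0.30) rose. E2F7 and E2F8, which are closely related repressors, thus went in opposite directions.

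**Figure D5:**
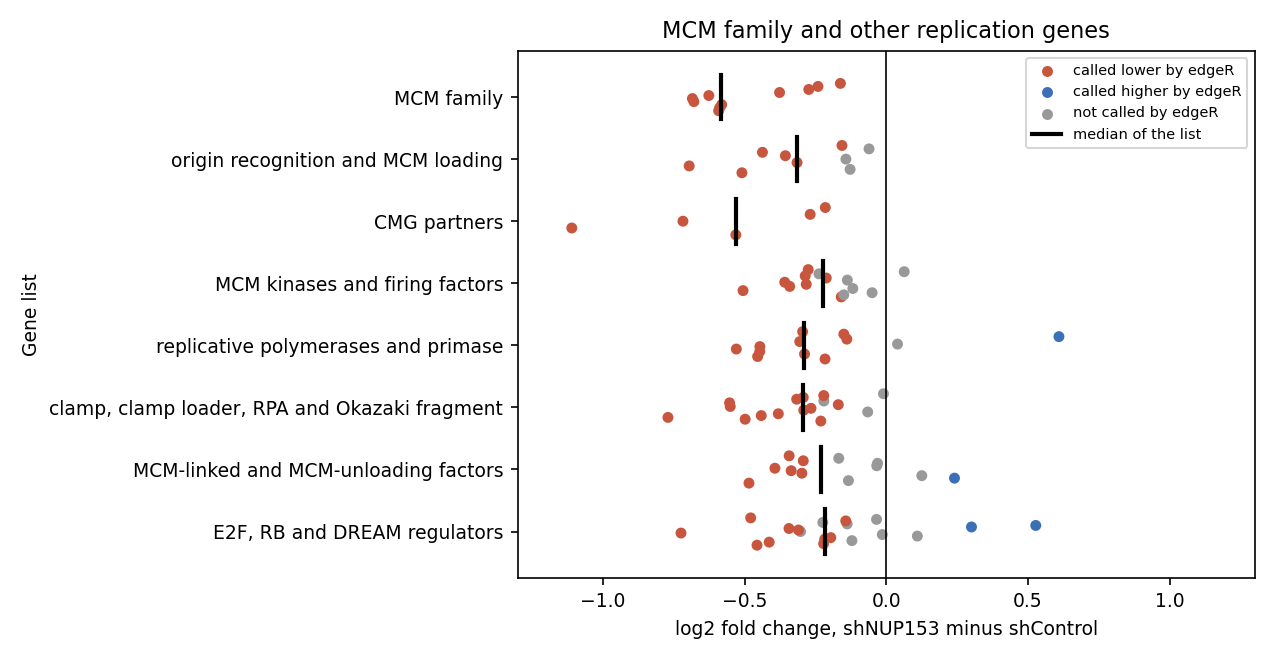
Log2 fold change, shNUP153 minus shControl (x axis), of each MCM family member and each tested gene of 7 replication lists (y axis), with a bar at the median of each row. The medians are -0.58 for the MCM family, -0.53 for the CMG partners and -0.32 to -0.22 for the other lists.

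Outside the family and the lists, the genes nearest to the mean profile of MCM2 to MCM7 were PSMD10, DCTPP1, TM7SF3, OLFML2A and RPL22L1, by the Euclidean distance of log2 CPM centred on each gene's mean over the 4 libraries, among 10932 genes of 5 CPM or more. Distances were 0.0132 to 0.0347, against 0.0331 for MCM7 and 0.0745 for MCM6 to their own mean. PSMD10, the proteasome assembly chaperone gankyrin, measured 82.0 and 86.3 CPM in shControl and 53.8 and 54.9 CPM in shNUP153. With 4 libraries in 2 groups, such likeness mostly means a difference of the same size.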

How the data were processed

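The authors deposited 1 table of whole-number counts per gene for 4 libraries. The submitters call it FPKM, but its values are whole numbers with unequal library totals and were taken as raw counts. Per the submitters' processing notes, kallisto, DESeq2, Bowtie2, deepTools and hg19 were named, with no role. The counting tool, annotation and strand setting are not stated. The table also holds the authors' deposited log2 ratio, which was not used. Of 56657 rows, 24486 were at 0 throughout, and for 45 repeated IDs the row with most counts was kept. Genes were kept by filterByExpr (minimum count 10, minimum total 15), scaled by TMM and fitted over both groups by the two-sided quasi-likelihood test of edgeR 4.0.16 (R 4.3.3), with p-values adjusted over 16817 genes. The SE is the log2 fold change over the square root of F. The procedure was also run on simulated counts with far fewer changed genes than were called here. That run does not show its error rate in these libraries. Replicates may be technical, in which case a p-value reflects library spread alone. Between replicates the chi-square per gene was 3.58 (shControl) and 3.10 (shNUP153), where sampling noise gives about 1. Alternatives used DESeq2 1.42.0, limma 3.58.1, other scalings and filters, a replicate block and each library left out. The members and lists were chosen with earlier results of these data known. Genes named are the members, NUP153, up to 4 genes of each list with the smallest p, unpassed genes where a list has 5 or fewer, overlapping or adjacent genes (GENCODE 29, since the RefSeq table gives no strand), genes sharing the MCM root and the 5 nearest profiles. CDC7, CDT1, GINS4, POLD4, E2F6, E2F7 and the marker genes named were chosen after their values were seen. Coding lengths came from GENCODE 29 in place of RefSeq proteins.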

Additional observations from a re-analysis of the deposited data

How the results depend on the processing

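The 12 other settings reuse the same libraries and the family was chosen with its difference known, so nothing is read from calls of its members. MCM2 to MCM7 had log2 fold changes from -0.72 to -0.52 at these settings, and all 10 members kept their direction. The count of members called lower was 6 with limma without a variance trend, where 390 genes were lower and 393 higher in all, and the lists then held 1 (loading), 2 (CMG partners), 1 (firing), 1 (polymerases), 4 (clamp), 0 (MCM-linked) and 1 (E2F) lower and 0 higher in the MCM-linked and E2F lists. DESeq2 called 1442 genes higher, 3 CMG partners lower and 0 MCM-linked genes higher, as did no filter on low counts for the last (0). With total-count scaling 3 CMG partners were lower and 1 firing factor higher, 62.8% of all calls were higher against 46.3% with TMM (57.6% with upper-quartile scaling), and the family median was -0.52 (MCM2 to MCM7 -0.55). The family median was -0.54 with upper-quartile scaling and -0.56 when genes needed a mean of at least 5 CPM. Leaving out each replicate in turn gave 1769 to 2874 genes lower and 1303 to 2327 higher, both lowest without shNUP153 replicate 1 (without replicate 2 of shNUP153, 1900 and 1442). It gave 7 to 10 members, 3 to 5 CMG partners, 5 to 9 firing factors lower and 0 to 1 MCM-linked genes higher, a family median of -0.61 to -0.55 and an MCM2 to MCM7 median of -0.66 to -0.58. Replicate numbers are shared between groups, but same-numbered libraries did not deviate together (correlation -0.0036 across genes). This correlation cannot show whether same-numbered libraries share an infection or a batch, which is not stated. With the replicate block 2935 genes were lower, 2530 higher, all 10 members lower and the family median -0.58.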

Other observations

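The E2F-type 8-base sequences searched for in the MCM promoters were also looked up in all genes with a RefSeq promoter window. Outside the MCM family and the 7 replication lists, 681 tested genes held at least 1 of them. Of these, 27.9% were called lower and 10.9% higher in shNUP153 by the edgeR fit, with a median log2 fold change of -0.06. Of the 10361 other tested genes with a window, 19.6% were called lower and 16.5% higher, with a median of -0.001. The sets were not matched for level, and 28.9% of tested genes of 20 CPM or more on average were called lower, against 17.4% of all tested genes. The difference between these sets was not tested.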
